A study of Mus musculus with 9 samples.

Results

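The 9 genes described here encode parts of the complement system and were taken as a fixed list of gene symbols, each of which matched 1 of the 53801 Ensembl genes counted in every library. They are *C1qa*, *C1qb* and *C1qc*, the chains of the recognition molecule C1q; *C4b*, *C3* and *Cfb*, which supply the opsonin C3b and the convertases that make it; *Cfp*, which encodes properdin; and *C3ar1* and *C5ar1*, the receptors for the fragments C3a and C5a. Their RNA was counted in monocytes/macrophages sorted as CD11c-Ly6G-CD11b+CD45high cells from male C57BL/6J mice aged 9 weeks. Stroke was induced by dMCAO, in which the distal part of the middle cerebral artery and the common carotid artery, both on the left, were closed for good. There were 3 groups of 3 libraries: the ipsilesional brain hemisphere 5 days after dMCAO (stroke brain, each library pooled from 5 mice), the blood 5 days after dMCAO (stroke blood, 1 mouse each) and the blood of sham-operated mice (sham blood, 1 mouse each, with no day named for the collection). A sham brain group was not analysed here, so a difference between stroke brain and either blood group combines the tissue with the injury. Because the sort keeps every CD11b+CD45high cell that lacks Ly6G and CD11c, resident macrophages that raise CD45 and cells that entered from the blood are in 1 pool, and fewer cells of a type cannot be told apart from less RNA per cell.

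Complement is a cascade of plasma proteins that tags microbes, immune complexes and dying cells for removal. In the classical pathway C1q binds the target and its partner proteases cut C4 and C2; in the alternative pathway factor B and factor D build the convertase that properdin stabilizes; both lead to cleavage of C3. The small fragments C3a and C5a released on the way attract and activate myeloid cells through their receptors. Most plasma complement is made in the liver, but macrophages make several of these proteins themselves, and microglia are a well known source of C1q in the brain, where C1q and C3 also take part in the removal of synapses and of apoptotic cells.

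Total counts lay between 18475118 and 22623578 per library, and at these depths 3 counts, the smallest number read as detection, equalled 0.133 to 0.162 CPM (counts per 1000000 counts of the library). All 9 genes had counts in all 9 libraries and passed the filter on low counts in every comparison. Of the 7 general monocyte and macrophage markers, which include the gate genes *Itgam* and *Ptprc*, all 7 passed the filter, with summed levels of 44865 to 50506 CPM in stroke brain and 85114 to 121366 CPM in blood. Microglial markers were high in stroke brain, at 1015 to 3105 CPM summed over 8 genes against 16.5 to 50.2 CPM in blood. Sham blood library 1 stood apart from the other blood libraries in red cell markers (1089 CPM against at least 12328 CPM) and platelet markers (17.6 CPM against at least 309.3 CPM), and stroke brain library 1 in fibroblast markers (584.4 CPM against at most 6.98 CPM in any other library). A differentially expressed gene (DEG) had to change by more than 1 on the log2 scale, up or down, and to reach an edgeR adjusted p under 0.05. The p-values measure the spread between these libraries. Although their sum was lower in stroke brain, only 1 of the 7 general markers was a DEG lower than in stroke blood. Against sham blood it was also 1 of 7, and none was a DEG higher in stroke brain.

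The chains of C1q are encoded side by side. On the minus strand of chromosome 4 (GRCm38), *C1qb* lies at 136880129-136886187, *C1qc* at 136889804-136893065 and *C1qa* at 136895917-136898803, 3 exon blocks each, with 3616 bases between the first pair and 2851 bases between the second. The cluster spans 18675 bases. Within 100000 bases on either side the counting held *Ephb2*, *Epha8* and *Zbtb40*. *Epha8* had no count in any library, *Ephb2* had at most 3, and *Zbtb40* had 63 to 127 counts with a log2 fold change of -0.05 between stroke brain and stroke blood and was not a DEG, unlike the C1q genes.

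The sequences before the starts of *C1qb* and *C1qc* are shown because these genes changed together, *C3ar1* because it also rose and *C3* because it fell. They are from RefSeq on GRCm38.p6, on the minus strand, written 5′ to 3′, and stop short of the gene as GENCODE M21 draws it. Capitals mark GAGGAA, a core bound by PU.1-type factors of myeloid cells, and TGCTGA, the core of a Maf recognition element, on either strand. *C1qb* at chr4:136886201-136886450, *C1qc* at chr4:136893066-136893164, *C3ar1* at chr6:122856162-122856407 and *C3* at chr17:57228137-57228386 read:
C1qb: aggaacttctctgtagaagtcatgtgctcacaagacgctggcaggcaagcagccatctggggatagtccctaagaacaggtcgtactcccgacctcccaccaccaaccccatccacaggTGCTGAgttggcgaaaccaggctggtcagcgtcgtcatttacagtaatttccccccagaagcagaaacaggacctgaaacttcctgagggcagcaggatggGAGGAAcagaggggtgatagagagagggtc
C1qc: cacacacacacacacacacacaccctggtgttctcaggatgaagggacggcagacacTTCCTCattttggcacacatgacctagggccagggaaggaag
C3ar1: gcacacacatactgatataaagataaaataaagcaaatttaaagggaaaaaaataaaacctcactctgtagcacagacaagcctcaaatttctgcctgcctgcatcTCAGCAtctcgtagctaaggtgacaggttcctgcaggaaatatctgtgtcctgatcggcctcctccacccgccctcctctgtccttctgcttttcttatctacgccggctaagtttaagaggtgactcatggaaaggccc
C3: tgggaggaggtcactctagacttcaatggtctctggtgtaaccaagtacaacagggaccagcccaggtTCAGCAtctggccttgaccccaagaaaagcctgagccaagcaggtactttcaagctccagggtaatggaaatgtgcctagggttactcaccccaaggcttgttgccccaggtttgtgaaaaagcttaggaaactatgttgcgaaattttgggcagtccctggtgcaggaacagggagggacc

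The 250 bases before the RefSeq start were searched in 6 members (*C1qb*, *C1qc*, *C3*, *Cfp*, *C3ar1* and *C5ar1*). Unlike the printed sequences, these windows can reach into the gene as GENCODE M21 draws it. That part was most of the *C5ar1* window and all but the 99 printed bases of the *C1qc* window. GAGGAA was present before *C1qb*, where it begins 30 bases ahead of the start. Before *C1qc* it lies on the opposite strand, printed as TTCCTC, with the first printed letter 193 bases ahead. The other members searched had none. A match to GAGGAA was found in 23.3% of 32851 such windows of the genome. TGCTGA was present before *C1qb* (131 bases ahead of the start), *C3* (182), *C3ar1* (144) and *C5ar1* (17), and in 16.1% of all windows. Distances run to the first letter of the match on the strand of the gene. TTNNGNAA, a loose form of the C/EBP motif found in 36.8% of windows, matched 4 times before *C3*, 2 of these at the same bases on opposite strands. It matched 1 time each in the windows of *C1qc* and *C5ar1*. These 2 matches, and that of *C5ar1* to TGCTGA, lie inside the gene as GENCODE M21 draws it. The AP-1 motif TGANTCA, found in 6.75% of windows, was present before *C3ar1* alone among the members searched, 22 bases ahead of the start. None of the matches to GAGGAA and TGCTGA overlap.

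Between stroke brain and stroke blood 6 of the 9 members were DEGs with higher levels in the brain (the C1q chains, *C4b*, *C3ar1* and *C5ar1*) and 1, *C3*, was a DEG with a lower level, where 13.1% of 13189 genes tested were higher and 7.86% lower. Groups did not overlap in CPM for any of the 9 members, which also held for 49.2% of all genes. Between stroke brain and sham blood 5 members were higher (the same without *C4b*) and *C3* was again lower, where 9.75% of 13020 genes were higher and 3.67% lower, and 7 members did not overlap against 41.7% of all genes. The median log2 fold change of the members was 2.75 and 2.32 in these comparisons, and that of all genes 0.06 and 0.01. Both comparisons share the stroke brain libraries.

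The C1q chains had the largest fold changes among the members between stroke brain and either blood group. Summed over the chains, C1q RNA was 3053 ± 1417 CPM in stroke brain (SD, n = 3), 21.4 ± 12.6 CPM in stroke blood (SD, n = 3) and 20 ± 6.65 CPM in sham blood (SD, n = 3). The stroke brain mean was thus 143-fold the stroke blood mean and 153-fold the sham blood mean. All 3 chains were DEGs against both blood groups and no stroke brain library overlapped a blood library.

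*C1qa*, the A chain, was at 233.3, 269.2 and 491.7 CPM in stroke brain libraries 1, 2 and 3. It was at 0.241, 0.186 and 1.51 CPM in stroke blood, values that rest on 5, 4 and 28 counts, and at 1.12, 0.752 and 1.35 CPM in sham blood. The stroke brain and blood libraries lay far apart, and of the stroke blood libraries only number 3 reached the sham levels. The log2 fold change was 8.89 ± 0.67 (SE) against stroke blood (adjusted p = 3.78e-05, edgeR) and 8.15 ± 0.43 (SE) against sham blood (adjusted p = 0.000141, edgeR).

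*C1qb*, the B chain, had the highest level per kilobase of the chains in every library. It was at 949.7, 1541 and 2397 CPM in stroke brain, at 9.84, 11.1 and 28.6 CPM in stroke blood and at 10.9, 10.5 and 20.3 CPM in sham blood. In each blood group library 3 stood above the other two, and all blood libraries lay far below the brain. The log2 fold change was 6.46 ± 0.55 (SE) against stroke blood (adjusted p = 6.7e-05, edgeR) and 6.76 ± 0.49 (SE) against sham blood (adjusted p = 0.000317, edgeR).

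*C1qc*, the C chain, was at 598.3, 987.3 and 1692 CPM in stroke brain, at 3.09, 3.66 and 5.78 CPM in stroke blood and at 5.74, 3.57 and 5.85 CPM in sham blood. The log2 fold change was 7.88 ± 0.48 (SE) against stroke blood (adjusted p = 1.65e-05, edgeR) and 7.64 ± 0.50 (SE) against sham blood (adjusted p = 0.000239, edgeR). Between the stroke brain libraries the chains kept 1 order, library 1 lowest and library 3 highest, over a range of 2.11-fold for *C1qa*, 2.52-fold for *C1qb* and 2.83-fold for *C1qc*.

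**Figure D1:**
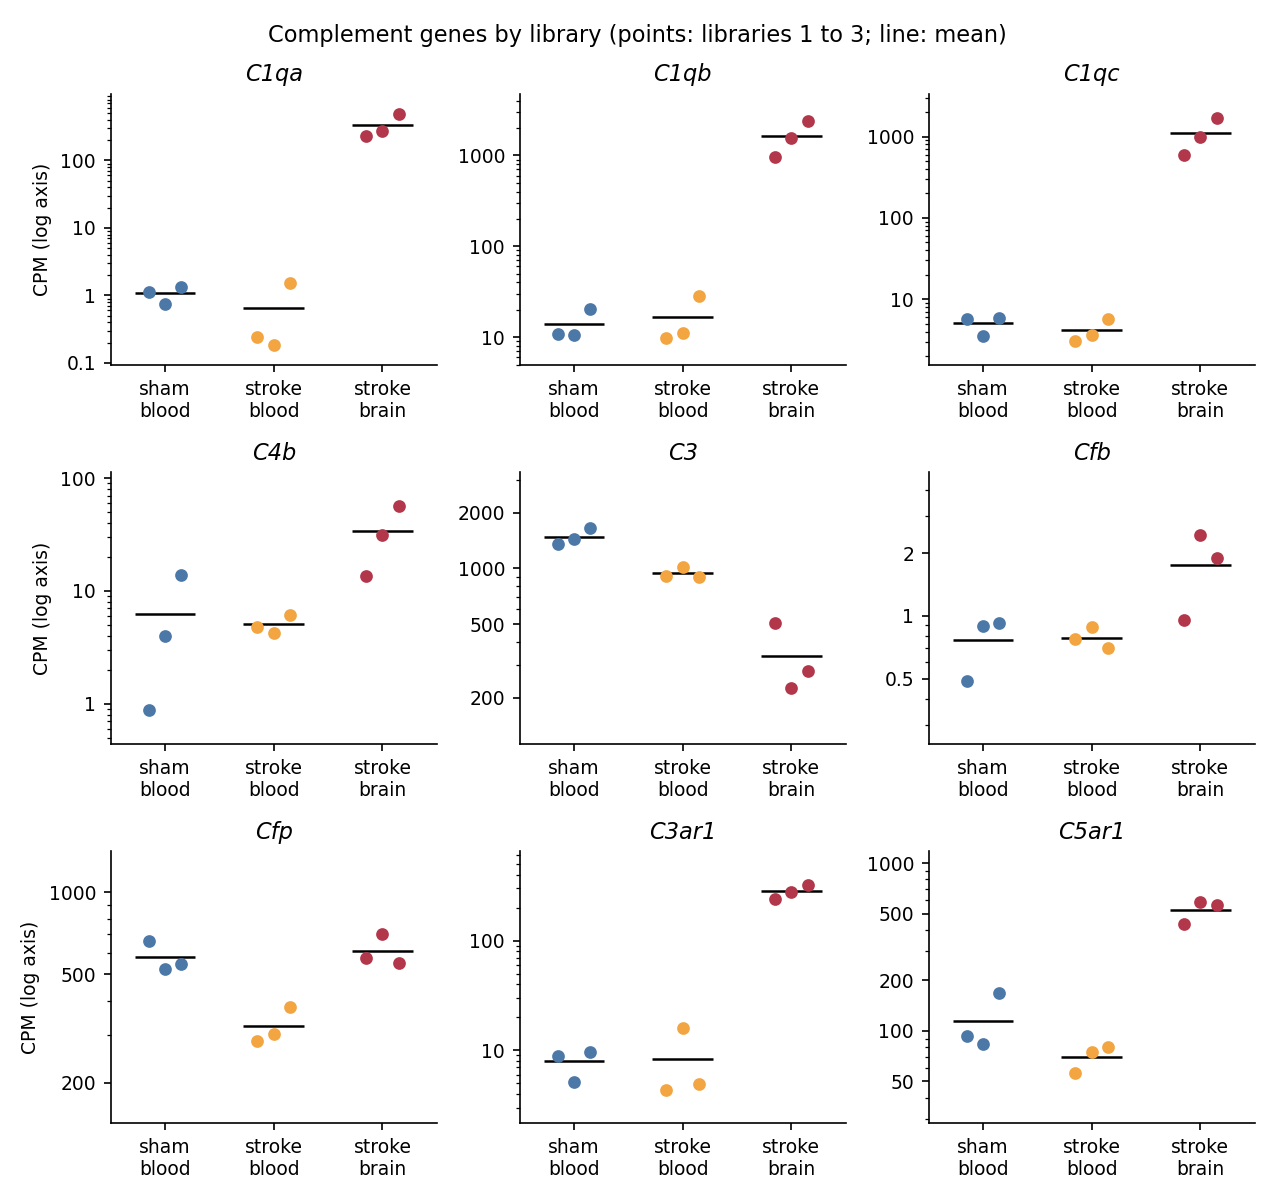
CPM on a log axis for the 9 complement genes in the 3 libraries of each group, with a line at the group mean. The C1q chains, *C3ar1* and *C5ar1* stood above both blood groups in all stroke brain libraries, whereas *C3* stood below them and *Cfp* was lowest in stroke blood.

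Although the chains changed together, their proportions were not the same in the brain and blood libraries. *C1qa* made up 13.1%, 9.62% and 10.7% of the C1q counts in the stroke brain libraries, 6.32%, 5.08% and 4.92% in sham blood and 1.83%, 1.24% and 4.21% in stroke blood. The exact 95% binomial intervals of the stroke blood shares, which cover counting error only, reached from 0.338% to 6.03%, so that the highest still lay below the lowest brain share. *C1qb* made up 52.3% to 55.1% in stroke brain against 61.3% to 79.7% in blood, and *C1qc* 33.6% to 36.9% against 16.1% to 32.4%.

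Per kilobase of exon, *C1qb* was 3.89 to 5.47 times *C1qa* in stroke brain, 9.27 to 14.3 times in sham blood and 18.1 to 57.4 times in stroke blood. The log2 ratio of *C1qb* to *C1qa* was lower by 2.89 in stroke brain than in stroke blood and lower by 1.39 than in sham blood, with no overlap between libraries (exact two-sided permutation test, p = 0.1 in each case, the smallest p that 3 libraries against 3 allow, and adjusted p = 0.129 over 9 ratio tests). It was higher by 1.51 in stroke blood than in sham blood, again without overlap (exact permutation test, p = 0.1). *C1qb* was 2.52 to 2.82 times *C1qc* in stroke brain and 3.35 to 8.79 times in blood, a log2 ratio lower by 1.26 than in stroke blood and by 0.82 than in sham blood (exact permutation test, p = 0.1 in each case). The log2 ratio of *C1qc* to *C1qa* was lower by 1.63 in stroke brain than in stroke blood, and by 0.57 than in sham blood. Its libraries did not overlap in either comparison (exact permutation test, p = 0.1 in each case). Between the blood groups this ratio and that of *C1qb* to *C1qc* overlapped (exact permutation test, p = 0.4 in each case).

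**Figure D2:**
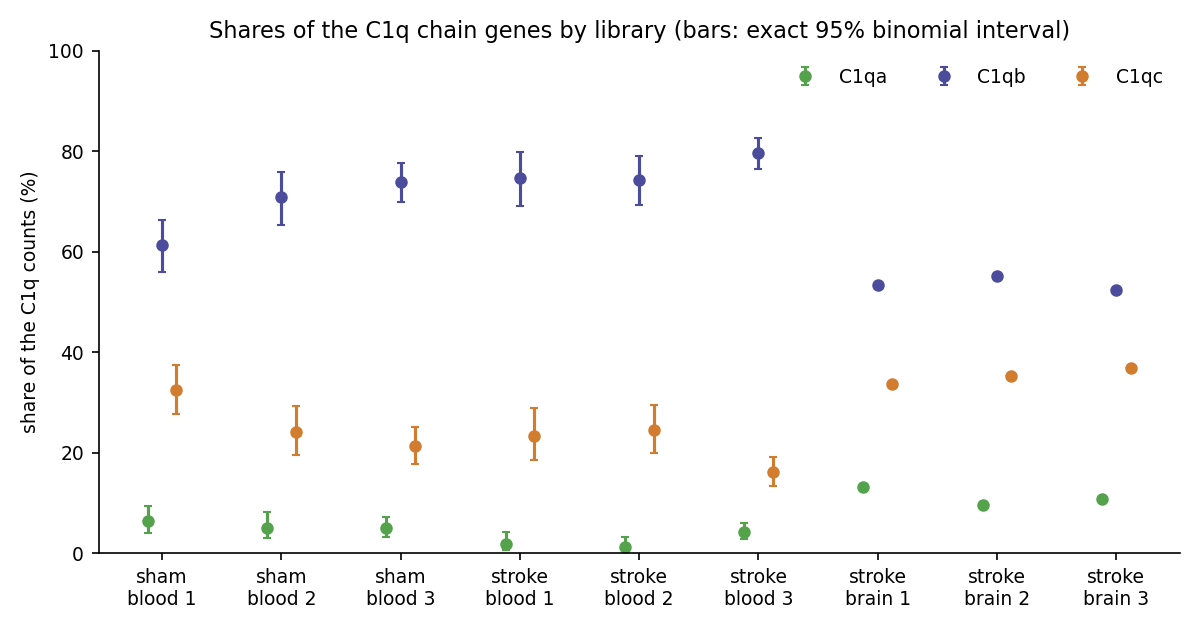
Share in percent of the C1q counts that fell on each chain gene in the 9 libraries, with exact 95% binomial intervals. *C1qa* took 9.62% to 13.1% in stroke brain and 1.24% to 6.32% in blood, and *C1qb* took the largest share throughout.

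Markers of resident brain macrophages moved with C1q. All 8 microglial markers reported (*Tmem119*, *P2ry12*, *Sall1*, *Siglech*, *Gpr34*, *Fcrls*, *Sparc* and *Olfml3*) were DEGs higher in stroke brain than in stroke blood, and all 8 than in sham blood. Their summed level was 1015, 1428 and 3105 CPM in stroke brain libraries 1, 2 and 3, with library 1 lowest and library 3 highest as for C1q. Per marker count there were 1.76, 1.96 and 1.48 C1q counts in these libraries and 0.422 to 1.07 in the blood libraries. The 5 markers of border-associated macrophages (*Mrc1*, *Cd163*, *Lyve1*, *Cbr2* and *Folr2*) had the same lowest and highest libraries, at 56.7, 116.1 and 189.0 CPM, against 11.04 to 25.4 CPM in blood, and 4 of 5 were DEGs higher than in either blood group. Classical monocyte markers went the other way, at 5931 to 7140 CPM in stroke brain and 14367 to 33493 CPM in blood, with 5 of 6 lower than in stroke blood. The library order of C1q was not particular to these lists. T and NK cell markers had it, at 610.7, 1199 and 1255 CPM in stroke brain, against 216.7 to 815.2 CPM in blood. So did neutrophil markers, at 651.9, 756.6 and 1140 CPM, against 404.4 to 757.1 CPM in stroke blood and 672.2 to 1753 CPM in sham blood. Of the 5 neutrophil markers tested against stroke blood 3 were DEGs higher in stroke brain and 1 was lower. Against sham blood 2 of 6 were higher and 1 was lower. Summed general monocyte and macrophage, platelet and red cell markers were also lowest in library 1 and highest in library 3. Some other cell types were higher in stroke brain without that order. Dendritic cell markers were at 879.0, 690.0 and 662.8 CPM in stroke brain and at 88.9 to 338.1 CPM in blood, with 5 of 6 DEGs against stroke blood and 2 against sham blood. Choroid plexus markers were at 102.2, 17.3 and 45.9 CPM against at most 0.0486 CPM in blood. Astrocyte markers were at 15.6 to 18.1 CPM against 3.72 to 7.25 CPM in blood, and the 3 that could be tested were DEGs against stroke blood. Among the other members *C4b* and *C3ar1*, described next, were also lowest in stroke brain library 1 and highest in library 3, while *C3* was highest in library 1. The part of these cell types in the values of the members was not tested.

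**Figure D3:**
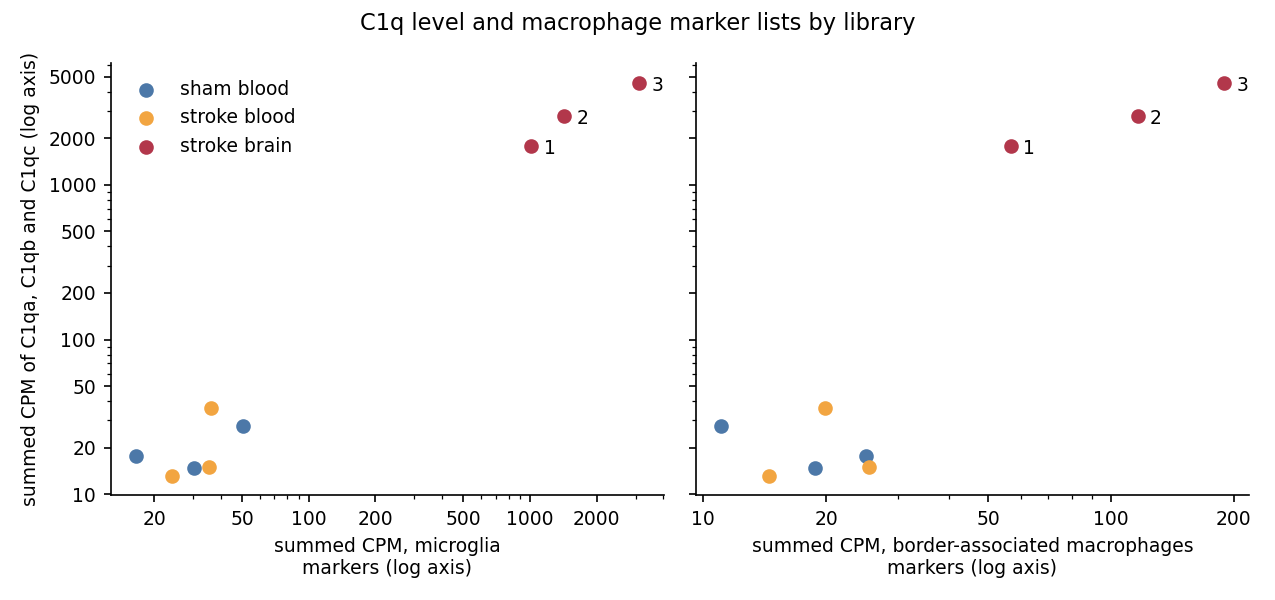
Summed CPM of *C1qa*, *C1qb* and *C1qc* against the summed CPM of 8 microglial markers (left) and 5 markers of border-associated macrophages (right), log axes, with a point per library and the stroke brain libraries numbered. In both panels the stroke brain libraries lay apart from the 6 blood libraries, with library 1 lowest and library 3 highest on both axes.

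*C4b* encodes complement C4, the substrate of the C1 proteases, and lies on chromosome 17 at 34728380-34743882. Its level was 13.4, 31.5 and 56.0 CPM in stroke brain and 4.83, 4.22 and 6.10 CPM in stroke blood. In sham blood it was 0.876, 3.95 and 13.9 CPM, a 15.8-fold spread, and sham library 3 lay above stroke brain library 1. *C4b* was a DEG against stroke blood (log2 fold change 2.58 ± 0.47 SE, adjusted p = 0.00334, edgeR) and missed the threshold against sham blood (2.32 ± 0.88 SE, adjusted p = 0.105, edgeR). Without sham library 3 the latter was 3.69 (adjusted p = 0.0422, edgeR). The near identical paralog *C4a*, 65209 bases away, had at most 10 counts in a library, and reads that map to both copies may have been dropped or assigned to either. With their counts summed the log2 fold change against sham blood was again 2.32.

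*C3*, the protein on which the pathways converge, was the member that fell. It lies on chromosome 17 at 57203970-57228136 and was at 1357, 1449 and 1645 CPM in sham blood, at 913.1, 1020 and 901.7 CPM in stroke blood and at 506.4, 225.1 and 279.2 CPM in stroke brain. The 3 groups did not overlap, and stroke brain library 1 was the highest of its group. Stroke brain was 3.13-fold below stroke blood (log2 fold change -1.65 ± 0.27 SE, adjusted p = 0.00209, edgeR) and 4.81-fold below sham blood (-2.27 ± 0.29 SE, adjusted p = 0.00291, edgeR). Neither call was lost when any library was left out; without stroke brain library 1, which held fibroblast RNA, the log2 fold changes were -2.05 and -2.67.

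*Cfb* encodes factor B, the alternative pathway protease, and had 10 to 55 counts per library, the lowest mean per kilobase of the members in each group; in stroke blood libraries 1 and 2 *C1qa* had fewer counts. It was at 0.960, 2.43 and 1.90 CPM in stroke brain, at 0.772, 0.881 and 0.702 CPM in stroke blood and at 0.486, 0.893 and 0.920 CPM in sham blood. The stroke brain values lay above the blood values, library 1 only slightly. Neither log2 fold change passed the test (1.01 ± 0.54 SE, adjusted p = 0.187 against stroke blood; 1.09 ± 0.53 SE, adjusted p = 0.19 against sham blood; edgeR). The level is uncertain, because 79.5% of its exon bases are shared with the readthrough gene *Gm20547* on the same strand, which had 0 counts in all libraries; reads on shared exons that were set aside as ambiguous would be missing from both genes.

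*Cfp* encodes properdin, made largely by myeloid cells, and lies on chromosome X at 20925454-20931555. It was at 662.9, 523.5 and 545.8 CPM in sham blood, at 284.9, 303.1 and 379.5 CPM in stroke blood and at 572.5, 704.3 and 549.7 CPM in stroke brain. Stroke blood was thus the low group, and stroke brain overlapped sham blood. Stroke brain was 1.69-fold above stroke blood (log2 fold change 0.76 ± 0.18 SE, adjusted p = 0.0114, edgeR), which passes the p threshold but not the fold threshold of a DEG. Against sham blood the log2 fold change was -0.05 ± 0.16 (SE, adjusted p = 0.866, edgeR), and its sign turned under library size scaling (0.08).

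Both anaphylatoxin receptors rose. *C3ar1*, the receptor for C3a (chromosome 6, 122847138-122856161), was at 240.9, 279.8 and 324.6 CPM in stroke brain, at 4.34, 16.0 and 4.97 CPM in stroke blood and at 8.95, 5.12 and 9.69 CPM in sham blood. Stroke blood library 2 was the highest blood library and still far below the brain. The log2 fold change was 4.91 ± 0.48 (SE) against stroke blood (adjusted p = 0.000147, edgeR) and 5.03 ± 0.30 (SE) against sham blood (adjusted p = 0.00022, edgeR).

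*C5ar1*, the receptor for C5a (chromosome 7, 16246743-16259540), was already expressed in blood. It was at 431.2, 586.2 and 564.3 CPM in stroke brain, at 56.4, 74.4 and 79.8 CPM in stroke blood and at 92.6, 83.5 and 168.2 CPM in sham blood. The log2 fold change was 2.75 ± 0.20 (SE) against stroke blood (adjusted p = 3.48e-05, edgeR) and 2.08 ± 0.29 (SE) against sham blood (adjusted p = 0.00414, edgeR). *C5ar2*, the other C5a receptor, lies 2588 bases away and was also a DEG, with 279, 706 and 788 counts in stroke brain, 82, 146 and 101 in stroke blood and 77, 126 and 204 in sham blood. Its log2 fold change was 2.20 ± 0.37 (SE) against stroke blood (adjusted p = 0.00224, edgeR) and 1.88 ± 0.47 (SE) against sham blood (adjusted p = 0.029, edgeR).

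**Figure D4:**
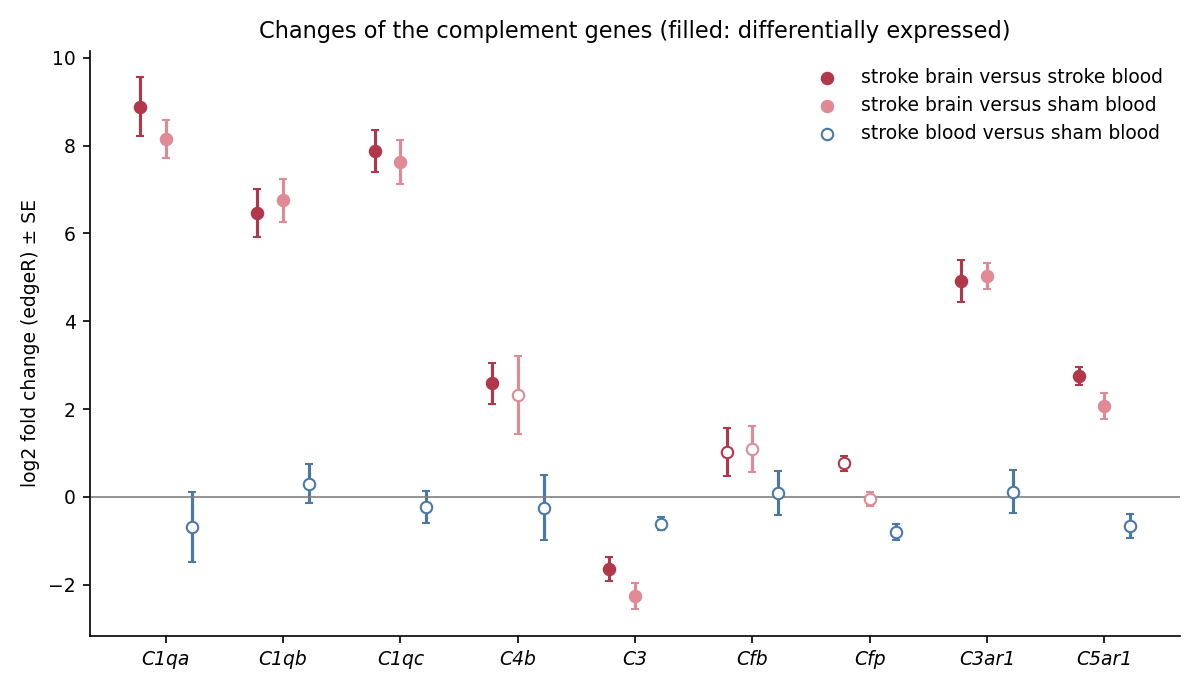
Log2 fold change with its standard error for each complement gene in the 3 comparisons, from edgeR; filled points are DEGs. Stroke brain differed from blood by 6.46 to 8.89 on this scale for the C1q chains, while stroke and sham blood differed by less than 1 for every member.

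Stroke and sham blood were compared to see whether the members differed in circulating cells. None of the 9 members was a DEG in edgeR, and none in DESeq2, where edgeR called 1 gene higher (0.0079%; *Serpinb10*, named here after its value was seen) and 0 lower (0%) of 12664 and DESeq2 called 135 in all and 70 lower. At an unadjusted p below 0.05 there were 3 members (*C3*, *Cfp* and *C5ar1*) and 1581 genes in all, 756 of them lower. These 3 members were also those whose groups did not overlap, all with stroke blood lower, where 18.7% of all genes did not overlap. *C3* differed by a log2 fold change of -0.61 ± 0.15 (SE, adjusted p = 0.285, edgeR; 0.0472 to 0.707 over the alternatives). *Cfp* differed by -0.80 ± 0.18 (SE, adjusted p = 0.285, edgeR; 0.0186 to 0.707 over the alternatives). *C5ar1* differed by -0.67 ± 0.28 (SE, adjusted p = 0.385, edgeR; 0.161 to 0.707). The lowest values came from DESeq2 for *C3* and *Cfp*. Without sham library 1, the library low in red cell and platelet RNA, *C3* was at -0.67 and *Cfp* at -0.68. For the C1q chains the log2 fold changes were -0.69 ± 0.80 for *C1qa*, 0.30 ± 0.44 for *C1qb* and -0.23 ± 0.37 for *C1qc* (SE), each smaller than its standard error, so a change of that size was not detectable at this spread. The *C1qa* value rested on stroke blood library 3: without it the log2 fold change was -2.29 (adjusted p = 0.609, edgeR), and over all alternatives it lay between -2.29 and -0.27 with no call.

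Levels can be set against each other per kilobase of exon, in CPM per kilobase. In sham blood *Cfp* (332.6 ± 43.2) and *C3* (288.5 ± 28.6) led, and their libraries overlapped. *C5ar1* (44.6 ± 18.1) and *C1qb* (12.8 ± 5.12) followed, each apart from its neighbours. *C1qc*, *C3ar1*, *C4b* and *C1qa* overlapped in that order from 2.62 to 1.03, and *Cfb* was last (0.271 ± 0.0860; SD, n = 3 throughout). The group means of stroke blood had the same order, led by *Cfp* (185.8 ± 28.9) and *C3* (183.8 ± 12.7). The separations were not all the same: *C3* exceeded *Cfp* in stroke blood libraries 1 and 2, and there *C5ar1* overlapped *C1qb* and *C1qa* overlapped *Cfb*.

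In stroke brain the order changed. *C1qb* led at 1497 ± 668.9 CPM per kilobase (SD, n = 3), then *C1qc* (565.7 ± 287.0), *Cfp* (350.7 ± 48.1), *C1qa* (318.7 ± 134.6) and *C5ar1* (205.2 ± 32.7), with each of these overlapping the next. *C3* (65.5 ± 29.0) and *C3ar1* (65.5 ± 9.72) overlapped, and both exceeded *C4b* (5.91 ± 3.75) and *Cfb* (0.624 ± 0.264).

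The rest of the pathway was read from a list of 46 further complement genes. Between stroke brain and stroke blood 19 could be tested, of which 3 rose and 2 fell, near the 13.1% higher and 7.86% lower of all genes, so these counts set the list apart in neither direction. *Itgax* (log2 fold change 2.71) encodes CD11c, a chain of complement receptor 4, and was itself a gate gene, since the sort took CD11c- cells. *Fcna*, a ficolin of the lectin pathway, had 41, 92 and 189 counts in stroke brain and 11 to 26 in stroke blood (log2 fold change 2.21 ± 0.59 SE, adjusted p = 0.02, edgeR). *C5ar2*, described above, was the third.

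Both genes that fell encode regulators. *Clu*, which encodes clusterin, an inhibitor of the membrane attack complex, had 200, 213 and 74 counts in stroke brain and 932 to 1546 in stroke blood (log2 fold change -3.10 ± 0.38 SE, adjusted p = 0.000459, edgeR). In sham blood it had 59, 1817 and 2296 counts, lowest in the library low in platelet markers. Platelet markers were at 38.3 to 84.0 CPM in stroke brain and 309.3 to 382.8 CPM in stroke blood, and their part in the *Clu* values was not tested. *Cd59b*, which blocks the same complex, had 0, 3 and 0 counts in stroke brain and 63 in all in stroke blood, a ratio of 21.8 (exact 95% counting interval 7.11 to 108), and was also a DEG (adjusted p = 0.00912, edgeR). In sham blood it had 0, 19 and 35 counts, again lowest in library 1, the library low in red cell and platelet markers. Red cell markers were at 3.95 to 14.0 CPM in stroke brain and 12328 to 16154 CPM in stroke blood, and their part in the *Cd59b* values was not tested. The paralog *Cd59a* had 18, 7 and 8 counts in stroke brain and 46, 26 and 21 in stroke blood. It was not a DEG (log2 fold change -1.64 ± 0.64 SE, adjusted p = 0.0796, edgeR). Whether *Cd59a* and *Cd59b* shared reads was not tested.

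Several genes whose products act directly beside the members were at the edge of detection or not detected. *C2* had at most 10 counts in a library, with 42.8% of its exon bases shared with *Gm20547*. Among the C1 proteases *C1ra* had 22 to 123 counts and did not pass the test against stroke blood (log2 fold change -0.53, adjusted p = 0.462, edgeR), *C1rb* had 1 count in all, and *C1s1* and *C1s2* had 0 in all 9 libraries. *Cfd*, the protease that cuts factor B, had 1 count, and *Hc*, the gene for C5, had at most 2 in a library. *Cfi*, *C4bp*, *Mbl1* and *Mbl2* were also at 0. Over the 46 genes the median log2 fold change of those tested was 0.08. Against sham blood 18 could be tested and 2 rose (*C5ar2* and *Itgax*), again near the 9.75% of all genes; between the blood groups 19 could be tested and none was a DEG in edgeR, 3 at an unadjusted p below 0.05 and 1, *Cr2*, in DESeq2.

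**Figure D5:**
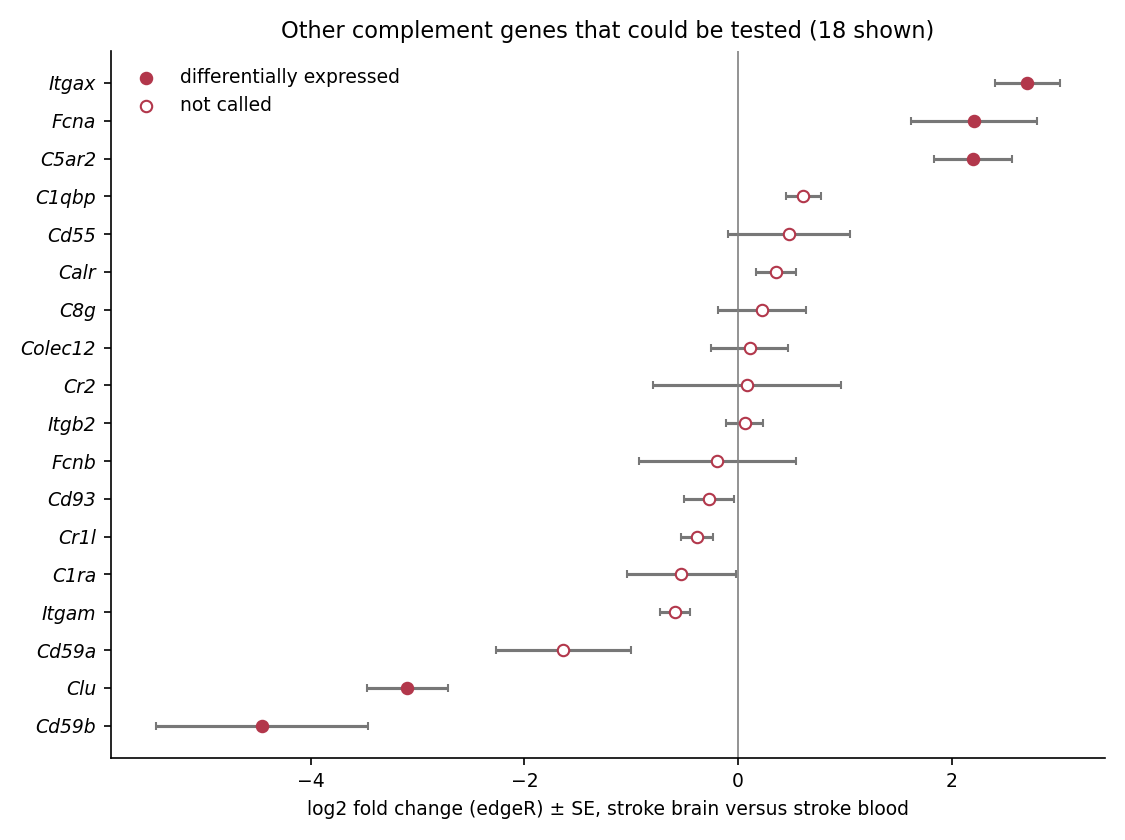
Log2 fold change between stroke brain and stroke blood, with its standard error, for 18 of the 19 further complement genes that passed the filter on low counts; filled points are DEGs. *Itgax*, *Fcna* and *C5ar2* rose by 2.20 to 2.71, *Clu* and *Cd59b* fell and the others shown were not called.

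Among 7708 genes with a mean log2 CPM above 3, those with the profile most like the mean of the C1q chains over the 9 libraries were *Abcc3*, *Slc37a2* and *Slc3a2* (Pearson's r of log2 CPM between 0.990 and 0.991). For *C3ar1* they were *Epb41l2*, the microglial marker *Tmem119* and *Efhd2* (r = 0.984 to 0.987), and for *C5ar1* they included *Cttnbp2nl* and *Rnf128* (r = 0.983 to 0.986). For *C4b* they were *Paox*, *Trem2*, a lipid-sensing receptor of microglia and macrophages, and *Dph1* (r = 0.956 to 0.972). For *C3* they were *Slc35c1*, *Fam78a* and *Mrtfa* (r = 0.987 to 0.994). *Cfp* followed *Map3k1*, *Twf1* and *Txnl4b* (r = 0.899 to 0.943), and *Cfb* followed *Stoml2*, *Polr1a* and *Vps33b* (r = 0.942 to 0.973). These correlations describe 9 libraries in 3 groups that share the split between brain and blood.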

How the data were processed

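Gene expression was measured by RNA-seq in 9 libraries of sorted monocytes/macrophages, grouped by the surgery and tissue in their labels. The authors made cDNA with the SMART-Seq HT kit, aligned the reads with HISAT2 on GRCm38 and obtained a count for each gene from HTSeq. The deposited files hold these raw counts, not normalized. Versions and the strand setting are not given in the sources used here. Symbols, positions and exon lengths were taken from GENCODE M21, which held 53706 of the 53801 identifiers.

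Each pair of groups was fitted alone by the quasi-likelihood method of edgeR 4.0.16 (R 4.3.3) after filterByExpr and TMM scaling, with Benjamini-Hochberg adjustment over all genes tested. CPM are counts over library totals. Scripts were tested on simulated data. The members and lists were chosen with earlier results of these data known. The text names all 9 members, the other complement genes that were DEGs in a comparison of stroke brain, *C4a* and *C2*, and by correlation the 3 genes most like each profile; other complement genes were named after their values were seen. Motifs were searched on both strands of RefSeq sequences. DESeq2 1.42.0 and other filters, scalings and thresholds were alternatives. Library totals gave a detection floor of 3 counts, and intervals cover counting error only, since PCR reads carried no molecular identifiers. A few listed genes are left out of the text.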

Additional observations from a re-analysis of the deposited data

How the results depend on the processing

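The members called numbered 7 (stroke brain against stroke blood), 0 (stroke against sham blood) and 6 or 7 (stroke brain against sham blood) under the alternatives run, apart from 8 with no fold threshold, which added *Cfp* against stroke blood; the seventh against sham blood was *C4b*, called with the replicate number as a block (log2 fold change 2.77, adjusted p = 0.0112, edgeR) or without sham library 3. Same-numbered libraries correlated between -0.0702 and 0.0663, and those of unlike number between -0.0804 and 0.115. No pairing by number was visible, but with 3 libraries per group this check cannot exclude one. The block also turned the difference between the blood groups to 0.38 for *C4b* and -0.12 for *C3ar1*, and changed no other call on a member. Scaling by library size moved the median log2 fold change of all genes from 0.06 to 0.22 against stroke blood and from 0.01 to 0.13 against sham blood, and turned *Cfp* against sham blood to 0.0775.

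With 1 library left out, *Cfp* against sham blood lay between -0.174 and 0.0747. Between the blood groups *C1qb* lay between -0.39 and 0.67 (negative without stroke blood library 3), *C4b* between -0.77 and 1.11, *Cfb* between -0.16 and 0.22, and *C3ar1* between -0.75 and 0.42, so none of these has a settled direction there. *C1qa* lay between -2.29 and -0.27, *C1qc* between -0.57 and -0.07 (both lowest without stroke blood library 3) and *C5ar1* between -0.87 and -0.29 (weakest without sham library 3). No chain ratio changed its sign, and taken on raw counts the differences were the same by construction.

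The other complement genes called against stroke blood were 8 without the filter and 4 to 8 with a library left out (8 without stroke brain library 1). Against sham blood they were 7 by DESeq2, 7 without the filter, 5 with all libraries in a single fit, 1 at an adjusted p below 0.01, and 1 to 6 with a library left out (1 without sham library 2 or stroke brain library 2, 4 without sham library 1, 6 without stroke brain library 1). Between the blood groups they were 1 by DESeq2 and 1 without the filter. Over all genes an adjusted p below 0.01 gave 1793, 0 and 792 calls in the order above; between the blood groups DESeq2 gave 135, no filter 160 and leave-outs 0 to 16 (16 without sham library 1), and against sham blood leave-outs gave 1146 to 1883 (1146 without sham library 3). The cause was not tested. For *Cfb* and for *C1qa* in blood, low counts limit what could be seen.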
